A study of Homo sapiens with 33 samples.

Results

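Proteasome genes were taken from the count table by name: every row whose symbol starts with PSMA, PSMB, PSMC, PSMD, PSME, PSMF or PSMG followed by a number and holds no hyphen. The rule took 49 of 26475 genes. RNA was sequenced from HEK293T cells, an established human embryonic kidney line, in 33 libraries that form 11 groups of 3, to see how base editors, fusions of a nicking Cas9 (nCas9) with a DNA deaminase, act on the transcriptome. The editors were Target-AID, a cytosine editor, SpACE, a dual editor of adenine and cytosine, and ABEmax and miniABEmax-V82G, adenine editors, each with a guide RNA called HEKsite2 and with a guide RNA called RNF2 after the gene it targets. The controls were nCas9 with the same 2 guides and GFP with no guide. Editor plasmids also encoded GFP behind a P2A linker, all cells were sorted as GFP-positive 36 to 40 h after transfection, and so every group is a sorted, transiently transfected bulk population of 1 line.

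The proteasome degrades proteins that carry ubiquitin chains. Its barrel-shaped 20S core is built of alpha rings (PSMA genes), which gate the entry, and beta rings (PSMB genes), which hold the proteolytic sites. A 19S cap on the core recognises and unfolds substrates with its base, a ring of ATPases (PSMC genes) with a few scaffold and receptor subunits, and removes ubiquitin with its lid (most PSMD genes). Other members are activators that replace the cap (PSME genes), an inhibitor (PSMF1), and chaperones that assemble the core (PSMG genes) or the base (PSMD5, PSMD9, PSMD10). Subunit genes are known to be induced together by the transcription factor NFE2L1, which binds antioxidant response elements in their promoters when proteasome capacity falls short.

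Promoters were searched for the core of that element, TGACNNNGC, on both strands of the 250 bases before each start in RefSeq's GRCh38.p14 sequences, where 43 of the 49 members have an entry. It was present in 11 of the 43 (25.6%), in 3 of 26 core and cap genes (11.5%), and in 10.9% of all 35116 promoters. The windows of the 3 core and cap genes and of PSME1 and PSME2, the activator pair with the deepest falls below, are printed in the gene's own direction with the match in capitals: PSMB3 at chr17:38752611-38752670 on the + strand, PSMD3 at chr17:39980744-39980803 on the + strand, PSMD12 at chr17:67366709-67366768 on the - strand, PSME1 at chr14:24136082-24136141 on the + strand and PSME2 at chr14:24146752-24146811 on the - strand.
PSMB3: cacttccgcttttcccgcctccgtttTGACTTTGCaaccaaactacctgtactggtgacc
PSMD3: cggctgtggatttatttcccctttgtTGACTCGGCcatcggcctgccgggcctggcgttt
PSMD12: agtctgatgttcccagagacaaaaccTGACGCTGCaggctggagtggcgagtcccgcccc
PSME1: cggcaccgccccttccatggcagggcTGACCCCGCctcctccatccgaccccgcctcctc
PSME2: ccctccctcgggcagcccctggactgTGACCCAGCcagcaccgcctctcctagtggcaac
These windows are placed by RefSeq's starts. GENCODE 29 starts PSME2 farther upstream, so its window lies inside the gene as GENCODE gives it. The windows of PSME1 and PSME2 were picked by their falls. The other members with a match were PSMB9, PSMD5, PSMD9, PSME4, PSMG1 and PSMG2. Of these, PSME4 and PSMD5 were called higher and PSMD9 lower in Target-AID with HEKsite2 (0.24, 0.54 and -0.42 on the log2 scale against nCas9). So matched members changed in both directions. A match describes letters only, and says nothing of whether a factor binds there. A CCAAT box, the letters CCAAT on either strand, was in 19 of the 43 members (44.2%) and in 32% of all promoters. The letters GAANNTTC of a heat shock element were in 1 member (2.33%, against 5.78% of all promoters). That member was PSMC3IP, which matches the name rule but is not a proteasome subunit. Those of an ATF4 composite site, TGATGNAAN, were in 0 of the 43, against 3.13% of all promoters.

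Total counts ran from 6790209 to 11200406 per library, and replicates of a group correlated at 0.990 to 0.996 on the log scale over the genes tested. The labels do not say that replicates are separate cultures, so p-values measure the spread between these libraries, which may be technical. RNF2, the gene targeted by the RNF2 guide, had 34.6, 42.0 and 33.2 CPM (counts per 1000000 of the scaled library total) in the nCas9 RNF2 libraries, against 73.1, 76.4 and 87.2 CPM in the GFP libraries. Its level was 69.8, 70.3 and 61.8 CPM in the Target-AID RNF2 libraries. Of 8 genes typical of HEK293 cells 7 had at least 134 counts in every library, and PAX2 had 0 to 8. Their sum was lower in Target-AID, at 668 to 714 CPM with HEKsite2 and 707 to 718 CPM with RNF2, against 861 to 888 and 844 to 887 CPM in nCas9 with the same guides. The 4 liver markers ALB, APOB, AFP and SERPINA1 summed to 2.78 to 3.39 CPM in Target-AID with HEKsite2 and 1.50 to 3.07 CPM with RNF2, against 0 to 0.433 CPM in all other groups, with albumin at 0 to 3 counts per library. The part of either difference in the results below was not tested. In nCas9 with HEKsite2, replicate 1 stood above the other 2 for many members, and in Target-AID with RNF2 replicate 3 did.

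Of the 49 members, 45 passed the filter on low counts and were tested. The 4 that did not are PSMA8, an alpha subunit known from testis, PSMB11, known from thymus, and PSMB8 and PSMB9, which replace catalytic beta subunits in the immunoproteasome of interferon-treated and immune cells. Their counts over all 33 libraries summed to 6, 11, 45 and 82. Levels can be compared between genes only per length, here as mean CPM over the 33 libraries per kb of exon (GENCODE 29). Exon bases are those of all transcripts in GENCODE's basic set for the gene, merged, here and below. They can exceed the length of the mRNA that the cells make, as may be so for PSMG4 with 5816 bases, so the order is approximate. On that scale beta subunits led, with PSMB4 at 335, PSMB1 at 314, PSMB3 at 201 and PSMB6 at 162 CPM per kb. The highest cap gene was PSMD4 at 156 CPM per kb and the base chaperone PSMD10, at 71.2, lay among the core and cap genes. Within the core and cap the lowest were PSMB2 at 32.5 and PSMC1 at 23.8 CPM per kb. The activators lay between 12.8 CPM per kb (PSME4) and 31.5 (PSME1), and the immunoproteasome gene PSMB10 at 10.4. The chaperones ran down to 2.79 CPM per kb in PSMD5 and 2.11 in PSMG4, still above PSMB9 at 0.312 and PSMB8 at 0.104. GENCODE lists 32 pseudogenes for 12 of the members, 13 of them for PSMC1, and 0 of these are rows of the count table, so reads shared with such copies are uncertain. The plot of levels per exon length orders all 49.

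**Figure D1:**
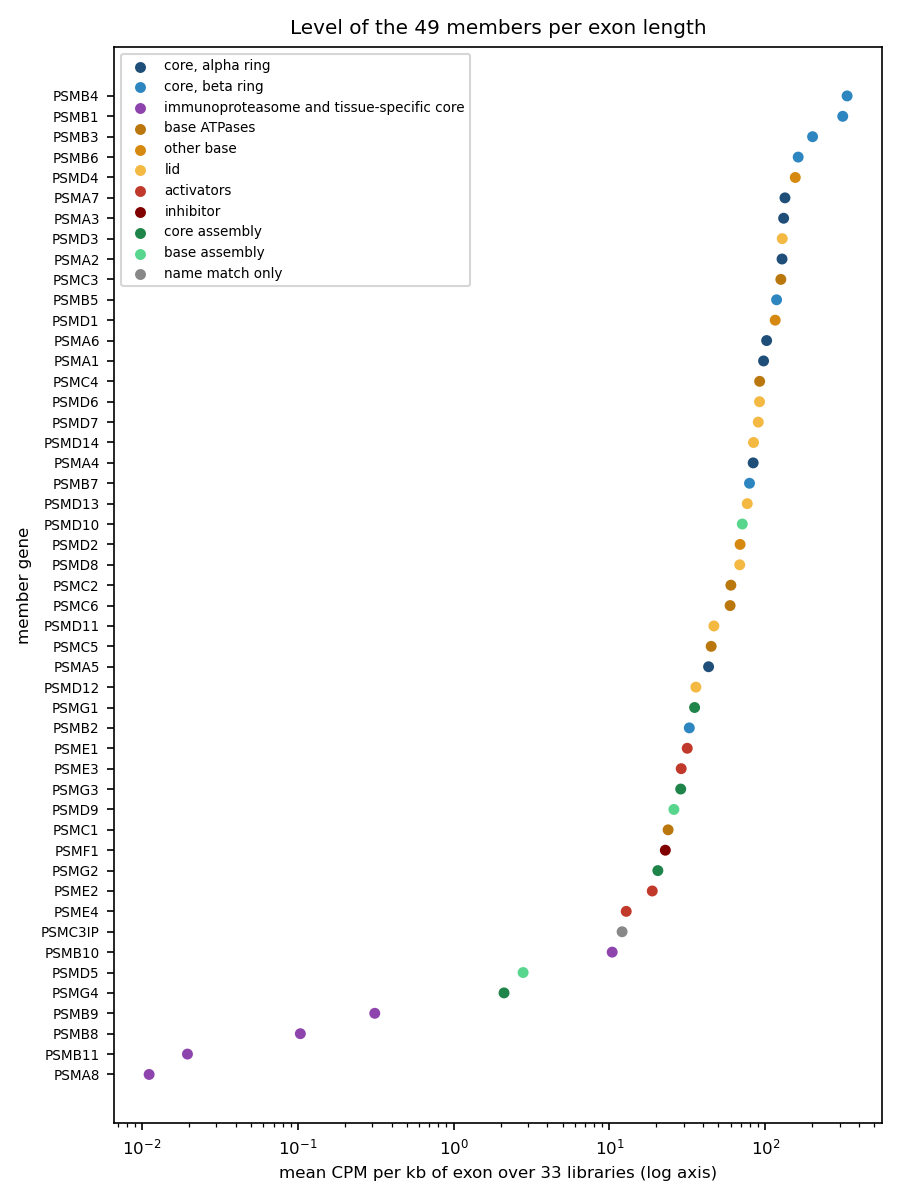
Mean CPM per kb of exon over the 33 libraries (log axis) for each of the 49 members, coloured by role. Beta subunits stand at the top, and the 4 members that were not tested stand lowest, at under 0.4 CPM per kb.

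Target-AID cells had less mRNA of most proteasome genes than nCas9 cells with the HEKsite2 guide, and of many with the RNF2 guide. A gene is called where edgeR's quasi-likelihood test gave a Benjamini-Hochberg adjusted p under 0.05 over all tested genes, and log2 fold changes are given ± SE. With HEKsite2 31 of 45 tested members were called lower and 2 higher, where 19.1% of all 14613 tested genes were called lower and 21.5% higher (40.6% in either direction). With RNF2 19 were called lower and 4 higher, where the shares of all genes were 15.8% and 19.4% (35.2% in either direction). The median member stood at a log2 fold change of -0.28 with HEKsite2 and -0.15 with RNF2, against 0.00 and -0.01 over all tested genes, which is -17.4 and -9.87% on the linear scale. Of the 31 core and cap genes 77.4% were called lower with HEKsite2 and 45.2% with RNF2. Genes of their size and abundance were also called lower more often than all genes: of the 1459 other tested genes within the same span of exon length and level, 45.7% were with HEKsite2 and 34.3% with RNF2, a description with no test. In bulk RNA a fall of this kind cannot be told apart from fewer cells that express the genes. Without Target-AID RNF2 replicate 1 the RNF2 count dropped to 14, 11 lower and 3 higher, and in a fit of the compared groups alone to 11, 9 lower and 2 higher. Without Target-AID RNF2 replicate 3 it rose to 30, 28 lower and 2 higher, with the median member at -0.22. Without nCas9 HEKsite2 replicate 1 the HEKsite2 count dropped to 25, 22 lower and 3 higher, with the median member at -0.19. The gap between guides in these medians thus depends on single libraries. Calls kept in all 12 alternatives, which are other scalings, tools and fits and each library left out, numbered 24 of 33 with HEKsite2 and 10 of 23 with RNF2.

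Members together took 0.615, 0.609 and 0.604% of all counts in the Target-AID HEKsite2 libraries, against 0.760, 0.698 and 0.682% in nCas9 with HEKsite2. With RNF2 they took 0.593, 0.606 and 0.665% in Target-AID, against 0.698, 0.689 and 0.663% in nCas9. In GFP the share was 0.685, 0.648 and 0.635%. The groups did not overlap with HEKsite2 and did with RNF2, where Target-AID replicate 3 stood apart from the other 2. The 14 core genes summed to 2434, 2357 and 2508 CPM in Target-AID with HEKsite2, against 3434, 3021 and 2846 CPM in nCas9, again with no overlap. With RNF2 the sums were 2259, 2359 and 2857 CPM in Target-AID and 2850.4, 2968 and 2729 CPM in nCas9, and replicate 3 of Target-AID lay inside the nCas9 range. Of the 31 core and cap genes 24 had their lowest group mean in a Target-AID group, 21 of them with HEKsite2, 2 had it in GFP and 5 in another group.

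Across the 11 groups, summed levels by role are given here as mean ± SD of 3 libraries. The core stood at 2433 ± 75.4 CPM in Target-AID, 2750.2 ± 116 in ABEmax, 2911 ± 54.2 in SpACE and 2996 ± 160.2 in miniABEmax-V82G with HEKsite2, against 3100.3 ± 302 CPM in nCas9. With RNF2 it stood at 2492 ± 320.3 CPM in Target-AID, 2634 ± 14.1 in miniABEmax-V82G, 2643 ± 168 in ABEmax and 2950.4 ± 124 in SpACE, against 2849 ± 119 CPM in nCas9 and 3014 ± 129 CPM in GFP. Target-AID thus had the lowest core mean with either guide, by more than its SD with HEKsite2 and within it with RNF2. The 17 cap genes summed to 2854 ± 103 CPM in Target-AID with HEKsite2, against 3293 ± 230.3 CPM in nCas9, and to 2894 ± 226 CPM in Target-AID with RNF2, against 3106 ± 90.7 CPM in nCas9, while the other 6 editor groups lay between 3179 ± 131 CPM (ABEmax with RNF2) and 3390.4 ± 142 CPM (miniABEmax-V82G with HEKsite2). The 4 activators together ranged from 267 ± 12.2 CPM in Target-AID with HEKsite2 to 321 ± 9.16 CPM in GFP, with nCas9 at 297 ± 6.37 and 297 ± 6.60 CPM for HEKsite2 and RNF2. The 4 core chaperones ranged from 201 ± 3.66 CPM in SpACE with RNF2 to 160.4 ± 8.24 CPM in GFP, and the 3 base chaperones from 169.9 ± 8.22 CPM in miniABEmax-V82G with RNF2 to 224 ± 5.18 CPM in GFP. GFP was thus at one end of the range for activators and both kinds of chaperone, lowest for those of the core and highest for the others.

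**Figure D2:**
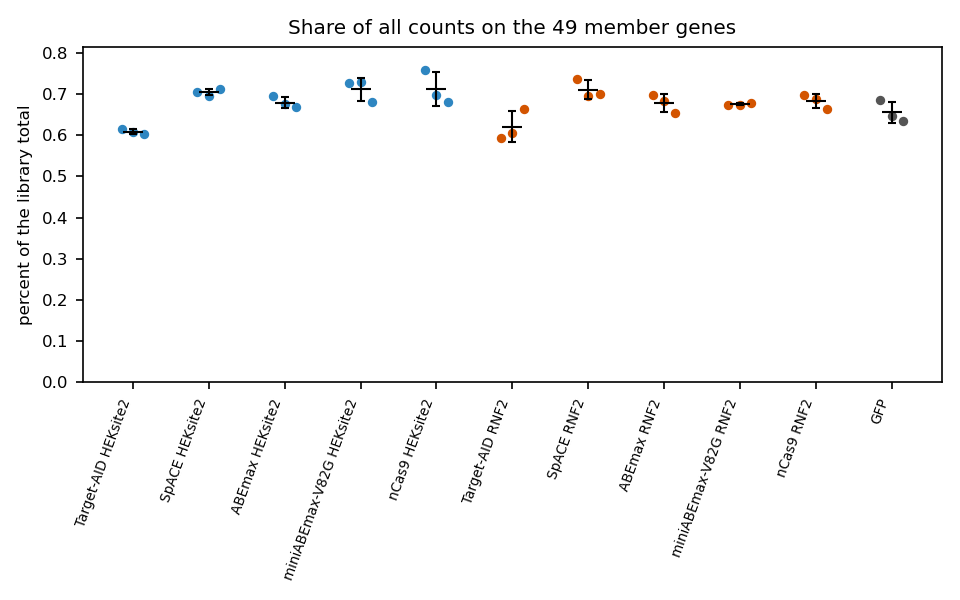
Percent of each library's counts that fell on the 49 members, for each group (points are libraries, black bars the mean ± SD of 3). Target-AID with HEKsite2 lies at 0.615, 0.609 and 0.604%, below every library of the other 9 groups that are not Target-AID.

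**Figure D3:**
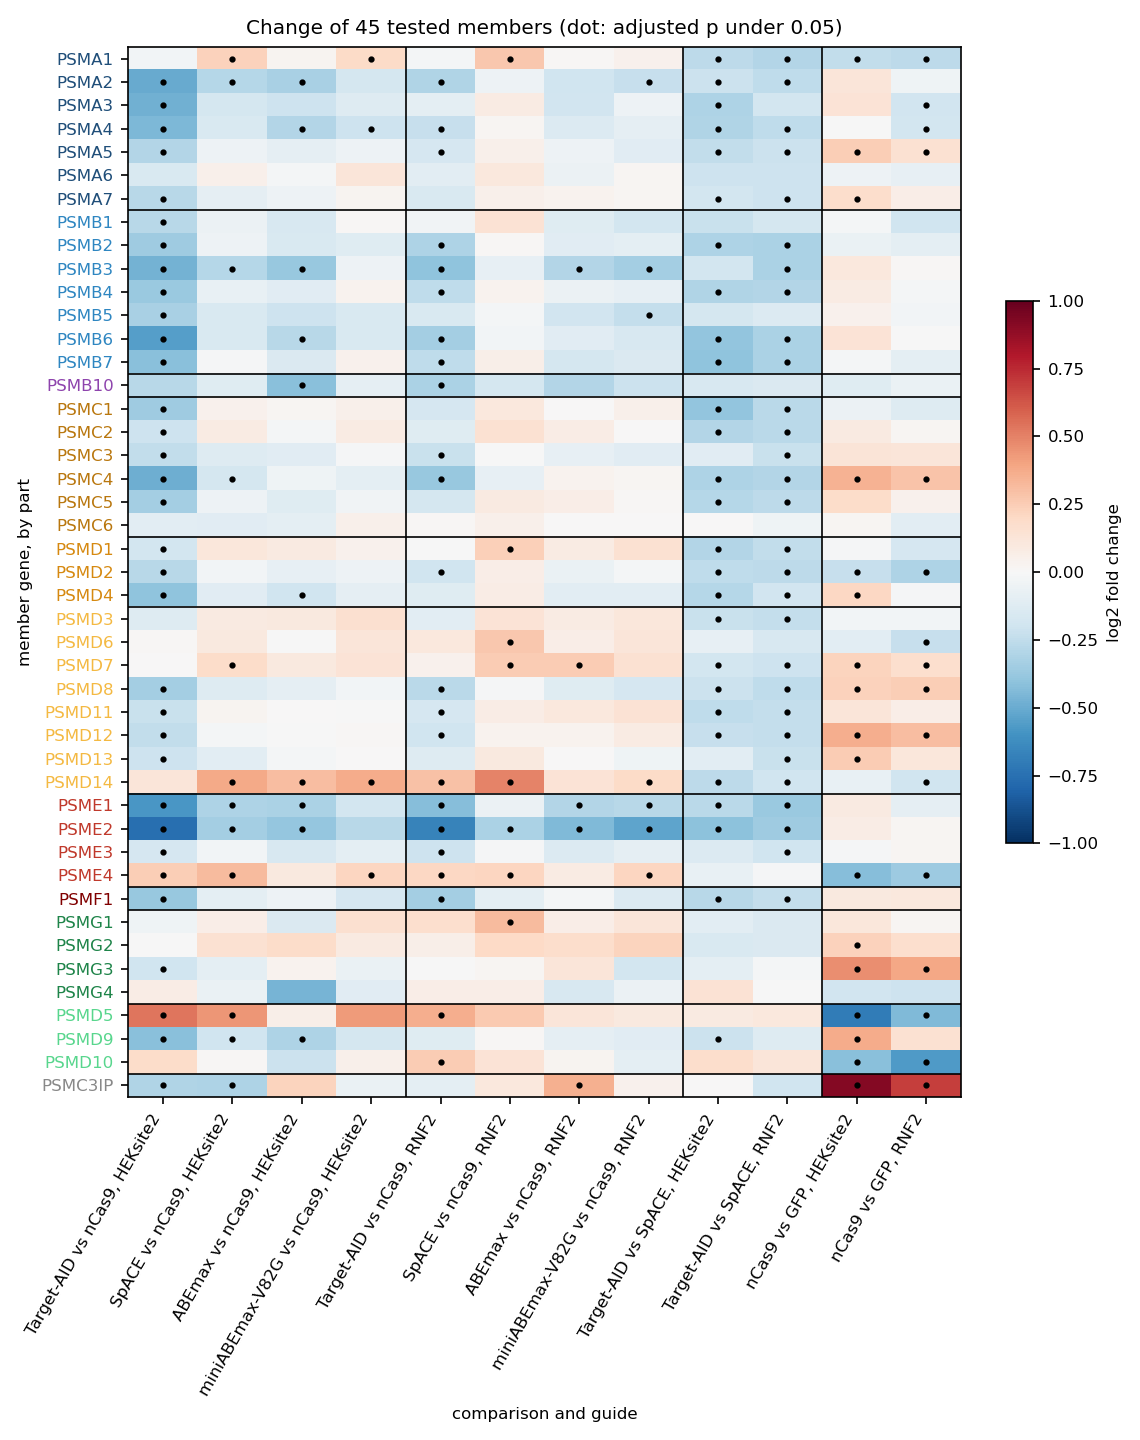
Log2 fold change of the 45 tested members (rows, by role) in 12 comparisons (columns), with the editor or nCas9 over its control, and a dot where the adjusted p was under 0.05. The Target-AID columns hold 31 and 19 falls against nCas9, and PSME2 is called lower in 7 and PSME4 higher in 6 of the 8 columns of an editor against nCas9.

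The alpha rings form the gate of the core. Of their 7 genes 5 fell in Target-AID with HEKsite2 (all genes 19.1%, those of like length and level 45.7%). With RNF2 3 fell (15.8% and 34.3%). PSMA2 stood lowest, with 157, 161 and 168 CPM in Target-AID with HEKsite2, against 260.2, 222 and 206 CPM in nCas9. The ranges did not overlap, and the log2 fold change was -0.50 ± 0.07 (adjusted p = 5.92e-07). With RNF2 it had 144, 158 and 194 CPM in Target-AID, against 207, 211 and 194 CPM in nCas9, and Target-AID replicate 3 lay at the lowest nCas9 value. That change was -0.30 ± 0.07 (adjusted p = 0.00125), and both calls held in all 12 alternatives. PSMA4 also fell with both guides, by 0.45 ± 0.06 and 0.23 ± 0.06 on the log2 scale. PSMA1 was at the other end, with 207, 202 and 197 CPM in Target-AID with HEKsite2, against 224, 208 and 186 CPM in nCas9, overlapping groups with a change of -0.03 ± 0.06 (adjusted p = 0.749). PSMA3 was called lower with HEKsite2 (-0.48 ± 0.08) and not with RNF2 (-0.10 ± 0.08). Its antisense row, PSMA3-AS1, whose reads cannot be told apart from those of PSMA3 if strand was not used in counting, had 18.8 CPM in Target-AID and 21.0 CPM in nCas9 with HEKsite2.

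The beta rings hold the 3 proteolytic subunits, PSMB6 with the caspase-like, PSMB7 with the trypsin-like and PSMB5 with the chymotrypsin-like site. In Target-AID 7 of 7 beta genes fell with HEKsite2 (all genes 19.1%, those of like length and level 45.7%). With RNF2 5 fell (15.8% and 34.3%). PSMB6 had 114, 109 and 117 CPM in Target-AID with HEKsite2, against 186, 164 and 149 CPM in nCas9, and 105, 113 and 138 CPM in Target-AID with RNF2, against 150.4, 159 and 142 CPM in nCas9. The ranges did not overlap with either guide, and the changes were -0.55 ± 0.08 (adjusted p = 1.2e-06) and -0.34 ± 0.08 (adjusted p = 0.00139). PSMB7 stood at 67.4, 58.8 and 63.5 CPM in Target-AID and 93.4, 82.03 and 77.8 CPM in nCas9 with HEKsite2, a change of -0.42 ± 0.08 that held in all 12 alternatives. With RNF2 its change of -0.26 ± 0.08 was lost without Target-AID replicate 1 or 2 or in a fit of the compared groups alone (adjusted p up to 0.0866). PSMB5 fell with HEKsite2 (-0.33 ± 0.08, adjusted p = 0.00135) and was not called with RNF2 (-0.15 ± 0.08, adjusted p = 0.148).

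Among the non-catalytic beta subunits, PSMB3 was called in 6 of the 8 comparisons of an editor with nCas9, which share the 3 nCas9 libraries of each guide. It had 129, 118 and 155 CPM in Target-AID with HEKsite2, against 203, 183 and 168 CPM in nCas9. With RNF2 the values were 107, 124 and 163 CPM in Target-AID and 166, 183 and 170.3 CPM in nCas9. No Target-AID library reached the nCas9 range, with changes of -0.47 ± 0.09 and -0.40 ± 0.09. PSMB3 also fell in ABEmax with HEKsite2 (-0.38 ± 0.10, lost without nCas9 replicate 1, adjusted p up to 0.0582). In ABEmax with RNF2 (-0.29 ± 0.10), miniABEmax-V82G with RNF2 (-0.34 ± 0.10) and SpACE with HEKsite2 (-0.28 ± 0.09) its falls were lost without several single libraries, with adjusted p up to 0.221, 0.111 and 0.177. For ABEmax these were replicates 1 and 3 of ABEmax or any of nCas9, for miniABEmax-V82G replicate 2 of either group, and for SpACE replicates 2 and 3 of SpACE or 1 and 2 of nCas9. PSMB1 was called in 1 comparison, with 266, 253 and 274 CPM in Target-AID with HEKsite2, against 362, 303 and 295 CPM in nCas9 (-0.28 ± 0.09, lost without nCas9 replicate 1, adjusted p up to 0.135). PSMB2 stood -0.35 ± 0.07 and -0.31 ± 0.07 from nCas9 in Target-AID with HEKsite2 and RNF2, and its calls held in all 12 alternatives.

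PSMB10, the one immunoproteasome gene above the filter, was a low gene at 9 to 17 CPM in every library. It had 10.1, 12.0 and 12.5 CPM in Target-AID with RNF2, against 12.2, 15.2 and 15.9 CPM in nCas9, with overlap at the lowest nCas9 library. The change of -0.32 ± 0.12 (adjusted p = 0.0363) was lost without Target-AID replicate 1 or nCas9 replicate 2 or 3, with no filter on low counts, in a fit of the compared groups alone or with DESeq2 (adjusted p up to 0.181). With HEKsite2 it was -0.28 ± 0.12 (adjusted p = 0.0651), from 12.2, 9.50 and 12.8 CPM in Target-AID and 15.5, 14.2 and 12.0 CPM in nCas9. ABEmax with HEKsite2 had 9.97, 10.5 and 10.6 CPM, a fall of 0.42 ± 0.13 on the log2 scale that was lost without ABEmax replicate 1, 2 or 3 or nCas9 replicate 1 or 2 or with DESeq2 (adjusted p up to 0.164).

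In the base of the cap, 5 of 6 ATPase genes fell in Target-AID with HEKsite2 (all genes 19.1%, those of like length and level 45.7%). With RNF2 2 fell (15.8% and 34.3%), near the share of genes of like length and level. PSMC4 was the lowest, with 116, 116 and 118 CPM in Target-AID with HEKsite2, against 172, 165 and 154 CPM in nCas9. With RNF2 it had 112, 118 and 132 CPM in Target-AID, against 159, 148 and 163 CPM in nCas9. The groups were apart with both guides, at -0.49 ± 0.06 (adjusted p = 5.21e-08) and -0.38 ± 0.06 (adjusted p = 8.28e-06), in all 12 alternatives. Against GFP, at 138, 126 and 121 CPM, PSMC4 was -0.14 ± 0.06 in Target-AID with HEKsite2 (adjusted p = 0.0741), while nCas9 with HEKsite2 stood 0.35 ± 0.06 above GFP (adjusted p = 1.84e-05). PSMC6 was the ATPase gene nearest to no change, with 133, 125 and 123 CPM in Target-AID and 147, 132 and 132 CPM in nCas9 with HEKsite2 (-0.11 ± 0.07), and it was called in 0 of the 8 comparisons with nCas9.

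All 3 other base genes fell in Target-AID with HEKsite2 (all genes 19.1%, those of like length and level 45.7%). With RNF2 1 fell (15.8% and 34.3%), near the share of genes of like length and level. PSMD4, a ubiquitin receptor, had 190.2, 183 and 181 CPM in Target-AID with HEKsite2, against 262, 241 and 230.4 CPM in nCas9, with no overlap and a change of -0.40 ± 0.06 (adjusted p = 3.16e-06). With RNF2 the values were 177, 182 and 221 CPM in Target-AID and 216, 211 and 205 CPM in nCas9, with Target-AID replicate 3 above all 3 nCas9 libraries and a change of -0.12 ± 0.06 (adjusted p = 0.146). PSMD2, a scaffold subunit, had 224, 205 and 204 CPM in Target-AID and 275, 246 and 247 CPM in nCas9 with HEKsite2 (-0.28 ± 0.07, in all 12 alternatives). Its fall with RNF2 (-0.20 ± 0.07) was lost without Target-AID replicate 1 or 2 or nCas9 replicate 1 or in a fit of the compared groups alone (adjusted p up to 0.15). PSMD2 was also lower than in GFP, at 312, 293 and 299 CPM, in each of the 10 groups that carry nCas9, by 0.23 on the log2 scale in nCas9 with HEKsite2 and by 0.51 in Target-AID with HEKsite2. PSMD1, the other scaffold, overlapped between the groups, with 379, 334 and 321 CPM in Target-AID and 444, 377 and 352 CPM in nCas9 with HEKsite2, and its call (-0.18 ± 0.07) was lost without Target-AID replicate 2 or 3 or nCas9 replicate 1 or 2, with total-count scaling or in a fit of the compared groups alone (adjusted p up to 0.462).

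In the lid, 4 of 8 genes fell in Target-AID with HEKsite2 (all genes 19.1%, those of like length and level 45.7%). With RNF2 3 fell (15.8% and 34.3%) and 1 rose (all genes 19.4%). With both guides the falls were near the share of genes of like length and level. PSMD8, a scaffold subunit, had 151, 152 and 169.5 CPM in Target-AID with HEKsite2, against 205, 201 and 192 CPM in nCas9, a change of -0.34 ± 0.07 (adjusted p = 0.000143). With RNF2 it had 148, 154 and 201 CPM in Target-AID, against 199.7, 205 and 201 CPM in nCas9, and its fall of 0.27 ± 0.07 on the log2 scale was lost in a fit of the compared groups alone (adjusted p up to 0.0593). Target-AID replicate 3 alone lay in the nCas9 range there.

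PSMD14, the lid's deubiquitinase, moved the other way. It had 189.8, 189 and 193 CPM in SpACE with HEKsite2, 195, 188 and 182 CPM in miniABEmax-V82G and 194, 177 and 172 CPM in ABEmax, against 152, 148 and 138 CPM in nCas9, and no library of these editors reached down to nCas9. These rises were 0.38 ± 0.06, 0.37 ± 0.06 and 0.31 ± 0.06, and each held in all 12 alternatives. With RNF2 it had 198, 183 and 185 CPM in SpACE and 159, 151 and 183 CPM in Target-AID, against 136, 138 and 127 CPM in nCas9, rises of 0.50 ± 0.06 (adjusted p = 1.85e-07) and 0.29 ± 0.06 (adjusted p = 0.00024). In miniABEmax-V82G with RNF2 its rise of 0.19 ± 0.06 was lost without miniABEmax-V82G replicate 2 or 3 or nCas9 replicate 1, 2 or 3 or with no filter on low counts (adjusted p up to 0.147). Target-AID with HEKsite2 (0.12 ± 0.06) and ABEmax with RNF2 (0.13 ± 0.06) were not called. GFP lay at 161, 153 and 147 CPM, below every SpACE library and overlapping Target-AID with RNF2. With RNF2, nCas9 was itself called lower than GFP, at -0.20. That call was lost without GFP replicate 1 or nCas9 replicate 3 or with total-count scaling.

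PSMD7 and PSMD6, which also belong to the lid, had no call in Target-AID against nCas9. PSMD7 rose in SpACE with RNF2 (0.25 ± 0.06) and ABEmax with RNF2 (0.26 ± 0.06), in all 12 alternatives, and in SpACE with HEKsite2 (0.19 ± 0.06), a call lost without SpACE replicate 2 or nCas9 replicate 3 or with no filter on low counts (adjusted p up to 0.135). PSMD6 rose in SpACE with RNF2 (0.27 ± 0.07, lost without SpACE replicate 1, adjusted p up to 0.0695).

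The activator genes split. PSME1 and PSME2, the PA28 pair that opens the core gate and is inducible by interferon gamma, fell in Target-AID with both guides, while PSME4, which encodes the nuclear activator PA200, rose. PSME2 had 24.8, 18.1 and 20.6 CPM in Target-AID with HEKsite2, against 39.4, 33.9 and 33.5 CPM in nCas9, and 22.5, 21.5 and 20.8 CPM in Target-AID with RNF2, against 34.1, 36.7 and 32.3 CPM in nCas9. The groups were well apart with both guides. Its log2 fold changes of -0.75 ± 0.10 (adjusted p = 6.95e-08) and -0.67 ± 0.10 (adjusted p = 9.24e-07) are the lowest of the 45 members in these comparisons. PSME1 had 28.6, 30.8 and 36.1 CPM in Target-AID with HEKsite2, against 47.5, 46.4 and 48.3 CPM in nCas9 (-0.58 ± 0.09, adjusted p = 1.35e-06). With RNF2 the values were 29.8, 29.4 and 34.1 CPM in Target-AID and 41.6, 42.4 and 41.5 CPM in nCas9 (-0.43 ± 0.09). The genes are neighbours at chr14:24136158-24138967 and chr14:24143362-24147570 (GRCh38), and GENCODE lists 2 pseudogenes of PSME2.

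PSME2 was called lower in 7 of the 8 comparisons of an editor with nCas9. Besides Target-AID it fell in ABEmax with RNF2, at 26.7, 27.4 and 21.8 CPM (-0.44 ± 0.10). In miniABEmax-V82G with RNF2 it had 23.4, 24.9 and 23.1 CPM (-0.53 ± 0.10), and both of these calls held in all 12 alternatives. Its fall in ABEmax with HEKsite2 (-0.39 ± 0.10) was lost without nCas9 replicate 1 (adjusted p up to 0.0648), and that in SpACE with HEKsite2 (-0.34 ± 0.10) was lost without nCas9 replicate 1 (adjusted p up to 0.0899). In SpACE with RNF2 (-0.31 ± 0.10) it was lost without SpACE replicate 3 or nCas9 replicate 2 (adjusted p up to 0.107), and miniABEmax-V82G with HEKsite2 was not called (-0.28 ± 0.09, adjusted p = 0.0516). The 8 comparisons share the nCas9 libraries of each guide. Set against GFP, at 35.7, 31.2 and 34.8 CPM, nCas9 was at 0.07 ± 0.09 with HEKsite2 and 0.02 ± 0.09 with RNF2, neither called, and Target-AID at -0.68 ± 0.10 and -0.65 ± 0.10.

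PSME4 had 91.7, 93.7 and 92.7 CPM in Target-AID with HEKsite2, against 77.7, 75.6 and 81.4 CPM in nCas9, with no overlap and a rise of 0.24 ± 0.06 (adjusted p = 0.00134, in all 12 alternatives). SpACE with HEKsite2 had 95.3, 97.1 and 101 CPM, a rise of 0.32 ± 0.06 over the same nCas9 libraries. With RNF2 it rose in Target-AID (0.20 ± 0.06, lost without Target-AID replicate 1 or in a fit of the compared groups alone, adjusted p up to 0.0705) and in SpACE (0.22 ± 0.06, lost without SpACE replicate 1 or with total-count scaling, adjusted p up to 0.088). The miniABEmax-V82G rises were 0.22 ± 0.06 with HEKsite2, lost without miniABEmax-V82G replicate 3 or nCas9 replicate 1 or 2 or with no filter on low counts (adjusted p up to 0.148), and 0.22 ± 0.06 with RNF2, lost without miniABEmax-V82G replicate 3 or nCas9 replicate 2 (adjusted p up to 0.0974). GFP libraries were higher than all of these, at 105, 107 and 104 CPM, and nCas9 stood -0.43 ± 0.06 from GFP with HEKsite2 and -0.37 ± 0.06 with RNF2. PSME3, whose product is a nuclear relative of PA28, fell slightly in Target-AID with HEKsite2 (-0.16 ± 0.07, lost without Target-AID replicate 2 or nCas9 replicate 1 or 2, with total-count scaling or in a fit of the compared groups alone, adjusted p up to 0.29) and with RNF2 (-0.21 ± 0.07, lost without Target-AID replicate 1 or 2 or nCas9 replicate 2 or in a fit of the compared groups alone, adjusted p up to 0.0665).

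PSMF1, which encodes the inhibitor PI31, had 92.1, 81.2 and 80.9 CPM in Target-AID with HEKsite2, against 115, 107 and 108 CPM in nCas9. With RNF2 it had 90.1, 81.7 and 89.6 CPM in Target-AID, against 115, 108 and 107 CPM in nCas9. Both pairs were apart, at -0.38 ± 0.06 (adjusted p = 6.28e-06) and -0.34 ± 0.06 (adjusted p = 4e-05), in all 12 alternatives. None of the 6 comparisons of the other editors with nCas9 called it.

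Of the chaperones that build the core, PSMG1 to PSMG4, 1 was called in Target-AID with HEKsite2 and 0 with RNF2, counts too small to read against the 40.6% and 35.2% of all genes called. That one, PSMG3, had 50.1, 55.3 and 52.8 CPM in Target-AID and 63.1, 58.5 and 59.5 CPM in nCas9, and its fall of 0.20 ± 0.08 on the log2 scale was lost without Target-AID replicate 1 or 3 or nCas9 replicate 1, 2 or 3, with total-count scaling or with DESeq2 (adjusted p up to 0.17). Its antisense row PSMG3-AS1 had 2.44 and 2.80 CPM there. PSMG4 stood at 11.3, 12.2 and 16.7 CPM in Target-AID and 12.2, 13.5 and 12.1 CPM in nCas9 with HEKsite2, a change of 0.08 ± 0.15. PSMG1, the partner of PSMG2, rose in SpACE with RNF2, at 86.2, 85.3 and 90.1 CPM, against 68.2, 74.5 and 67.6 CPM in nCas9 (0.31 ± 0.08, adjusted p = 0.00307, in all 12 alternatives).

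Chaperones that build the base went in different directions. PSMD9 had 67.2, 62.2 and 64.1 CPM in Target-AID with HEKsite2, against 91.9, 84.6 and 81.8 CPM in nCas9, a fall of 0.42 ± 0.07 on the log2 scale (adjusted p = 7.61e-06) with no overlap. ABEmax with HEKsite2, at 72.5, 69.8 and 66.7 CPM, was lower too (-0.31 ± 0.07), and SpACE by 0.20 ± 0.07, a call lost without SpACE replicate 2 or nCas9 replicate 1 or 2 or with no filter on low counts (adjusted p up to 0.213). With RNF2 PSMD9 was not called in any editor, at -0.12 ± 0.07 in Target-AID. PSMD5 rose in Target-AID with HEKsite2, at 10.5, 9.99 and 11.2 CPM, against 7.03, 7.29 and 7.41 CPM in nCas9 (0.54 ± 0.15, adjusted p = 0.00316). With RNF2 it had 11.3, 10.8 and 11.5 CPM in Target-AID and 9.16, 10.4 and 6.53 CPM in nCas9, and its rise of 0.36 ± 0.14 was lost without Target-AID replicate 1, 2 or 3 or nCas9 replicate 1 or 3, with no filter on low counts, in a fit of the compared groups alone or with DESeq2 (adjusted p up to 0.309). The antisense row PSMD5-AS1 stayed at 0.838 and 0.925 CPM with HEKsite2. PSMD10, which encodes gankyrin, rose in Target-AID with RNF2 (0.26 ± 0.09, lost without Target-AID replicate 2 or 3 or nCas9 replicate 3, adjusted p up to 0.145) and was at 0.18 ± 0.09 with HEKsite2. Neither rise went past GFP, which had the highest group mean of PSMD5 (11.8 CPM) and PSMD10 (145 CPM). Against GFP, nCas9 with HEKsite2 and RNF2 was itself lower, at -0.70 and -0.44 for PSMD5 and -0.42 and -0.56 for PSMD10. The PSMD5 call with RNF2 was lost without GFP replicate 2 or nCas9 replicate 3. For PSMD9, nCas9 with HEKsite2 stood 0.37 above GFP, whose mean lay between those of the Target-AID groups.

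PSMC3IP has a name of the same pattern without being a proteasome subunit, since its product, HOP2, acts in meiotic recombination. It had 16.7, 18.1 and 15.7 CPM in Target-AID and 17.8, 15.6 and 17.1 CPM in SpACE with HEKsite2, against 22.1, 19.3 and 20.9 CPM in nCas9. Both falls, -0.30 ± 0.11 and -0.31 ± 0.11, were lost without single libraries, without Target-AID replicate 1 or 3 or nCas9 replicate 1 or 3 or with total-count scaling (adjusted p up to 0.106) for Target-AID and without SpACE replicate 2 or 3 or nCas9 replicate 1 or 3, with total-count scaling, with no filter on low counts or with DESeq2 (adjusted p up to 0.154) for SpACE. GFP stood far lower, at 11.3, 12.1 and 9.49 CPM, and every one of the 10 groups with nCas9 was above it, by 0.60 ± 0.12 in Target-AID with RNF2 to 1.14 ± 0.11 in ABEmax with HEKsite2. In ABEmax with RNF2 it also exceeded nCas9 (0.35 ± 0.11), a call lost without ABEmax replicate 1 or 2 or nCas9 replicate 1, 2 or 3 (adjusted p up to 0.14).

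**Figure D4:**
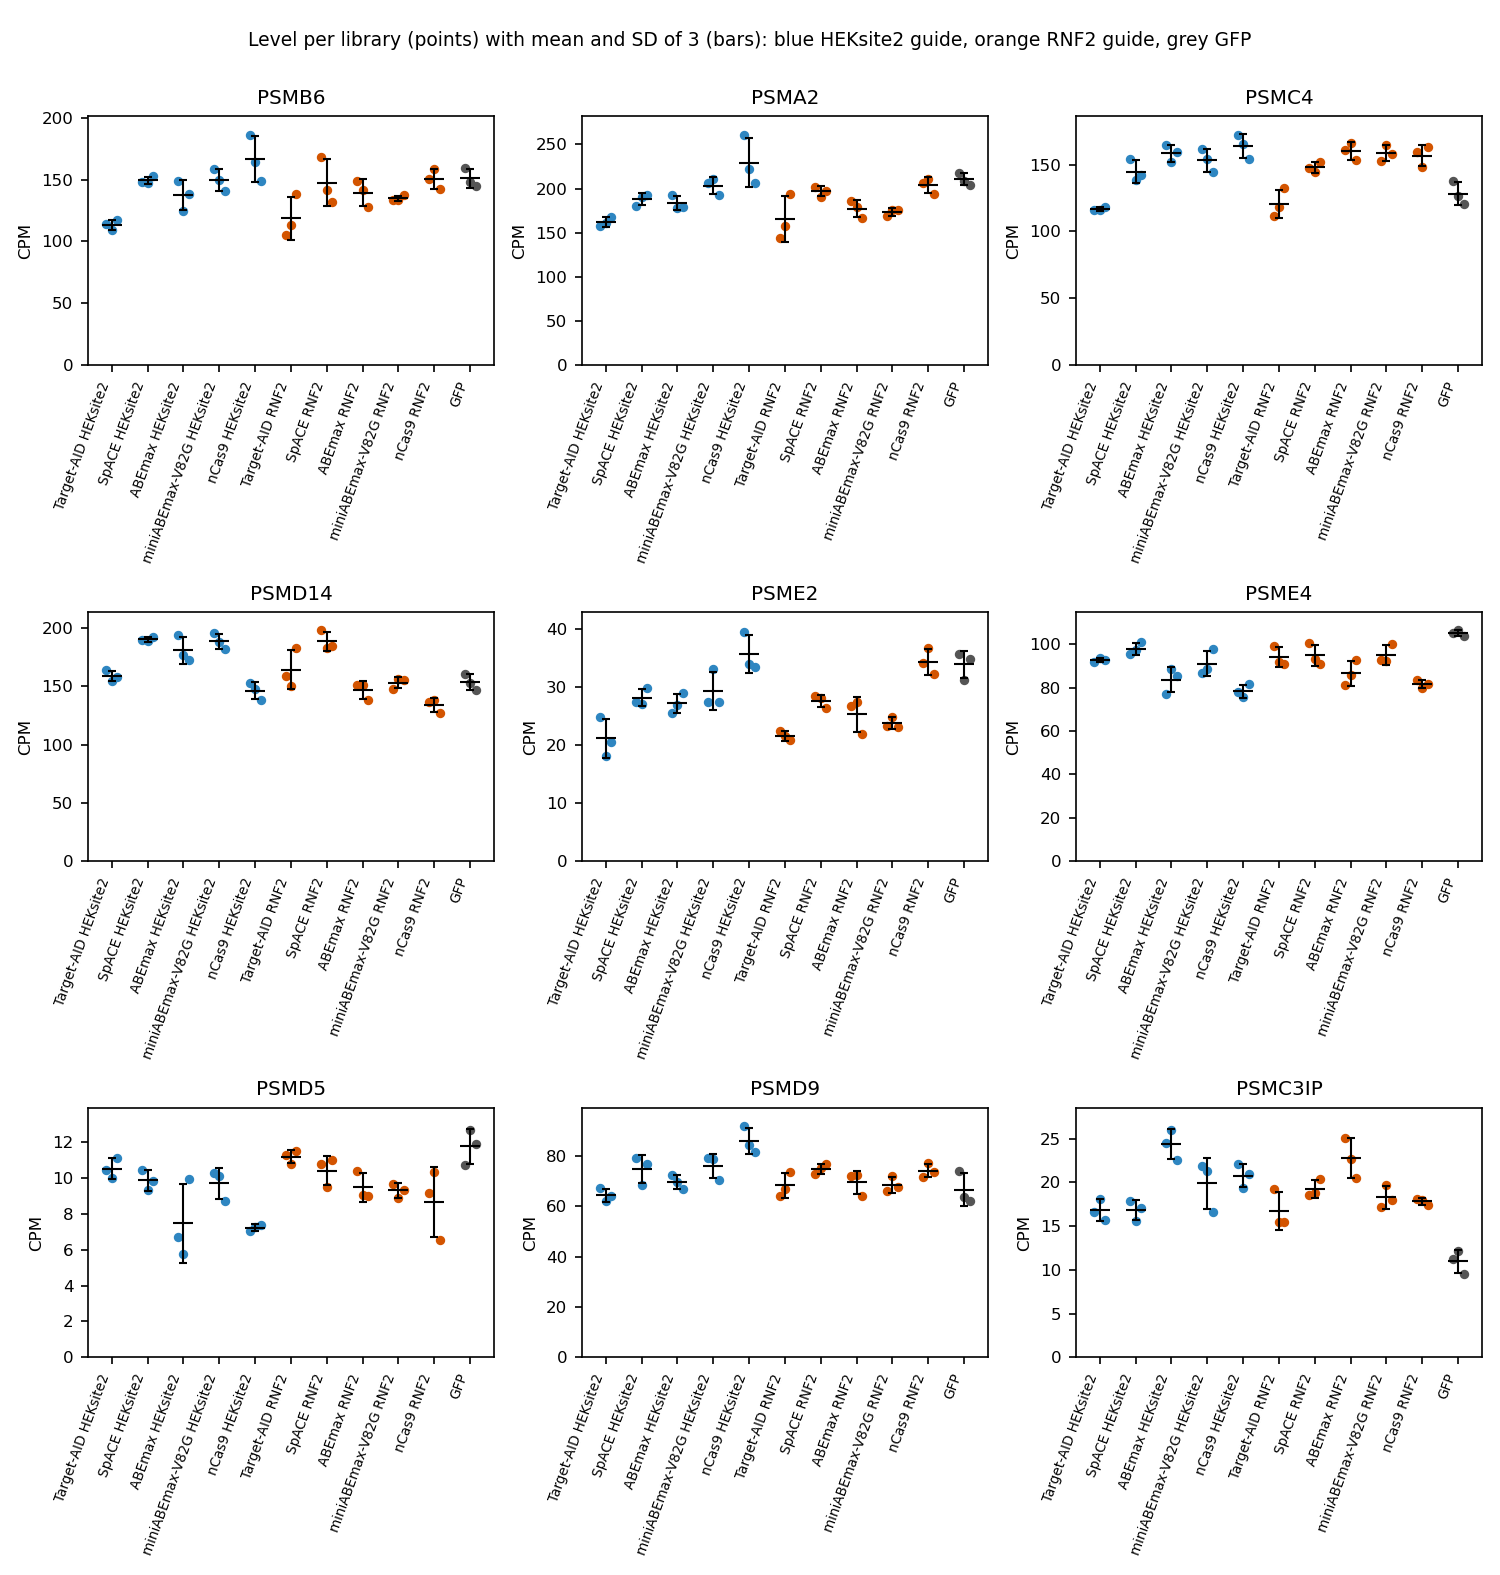
CPM in every library (points) with the mean ± SD of 3 (black bars) for 9 members in the 11 groups, editors to the left of nCas9 for each guide and GFP at the right. PSMB6, PSMA2, PSMC4 and PSME2 are low in the Target-AID groups, PSMD14 is high in SpACE, and PSMC3IP is lowest in GFP at 9.49 to 12.1 CPM.

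Each of the other 3 editors had at most 12 members called against nCas9. SpACE differed from nCas9 at 7 lower and 5 higher members with HEKsite2 (all genes 10.2% and 10.7%, together 21%), and at 1 lower and 7 higher with RNF2 (all genes 6.68% and 8.03%, together 14.7%). ABEmax had 9 lower and 1 higher with HEKsite2 (all genes 7.55% and 8.31%, together 15.9%), and 3 lower and 2 higher with RNF2 (all genes 4.66% and 6.51%, together 11.2%). For miniABEmax-V82G it was 1 lower and 3 higher with HEKsite2 (all genes 5.32% and 5.02%, together 10.3%), and 5 lower and 2 higher with RNF2 (all genes 5.72% and 6.88%, together 12.6%). The splits of miniABEmax-V82G were 2 lower and 3 higher with RLE scaling for HEKsite2, and 5 lower and 4 higher with total-count scaling for RNF2. Leaving out single libraries moved these counts. Without nCas9 HEKsite2 replicate 1 they were 6 for SpACE, 4 for ABEmax and 2 for miniABEmax-V82G, and without SpACE HEKsite2 replicate 2 SpACE had 7. For miniABEmax-V82G with HEKsite2 the count was also 2 without its replicate 3 or nCas9 replicate 2, with no filter on low counts, and in a fit of the compared groups alone. With RNF2, SpACE had 5 without its replicate 1, ABEmax had 2 without nCas9 replicate 2 and 3 without nCas9 replicate 1 or 3 or its own replicate 1 or 3, and miniABEmax-V82G had 1 to 4 without any 1 of the 6 libraries and 14 in a fit of the compared groups alone.

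In SpACE 3 of 14 core (21.4%) and 3 of 17 cap genes (17.6%) were called with HEKsite2, near the 21% of all genes called. For RNF2 it was 1 core and 4 cap genes, where 14.7% of all genes were called. Those 5 were PSMA1, PSMD1, PSMD6, PSMD7 and PSMD14, all higher, where 8.03% of all genes were called higher. The counts with RNF2 are too small to read against these shares. PSMA1 had 266, 231 and 241 CPM in SpACE with RNF2, against 203, 214 and 194 CPM in nCas9, a rise of 0.27 ± 0.06 (adjusted p = 0.00276). With HEKsite2 it had 238, 246 and 243 CPM in SpACE, against 224, 208 and 186 CPM in nCas9 (0.23 ± 0.06), a call lost without nCas9 replicate 3 (adjusted p up to 0.0937), while the call with RNF2 held in all 12 alternatives. Against GFP, PSMA1 in nCas9 was itself lower, at -0.24 with HEKsite2 and -0.26 with RNF2, in all 12 alternatives. Its GFP mean lay between those of SpACE with RNF2 and SpACE with HEKsite2.

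Target-AID was also set directly against SpACE, the dual editor, which likewise carries a cytosine deaminase. Against SpACE with the same guide, Target-AID had 27 of 45 members called lower with HEKsite2, where 8.21% of all genes were (18.5% called in either direction), and the other 18 were not called. With RNF2 29 were called lower, where 6.61% of all genes were (15.9% called in either direction), and 16 were not called. The median member stood at -0.22 and -0.22, or -14.1% with each guide, against 0.00 over all genes. Core and cap shared in it, with 10 of 14 core and 13 of 17 cap genes lower with HEKsite2 and 10 and 15 with RNF2. Core and cap together came to 74.2% with HEKsite2 and 80.6% with RNF2. The 1459 genes of the same span of length and level came to 25.4% and 22.9%, a description with no test. PSMC4 had 116, 116 and 118 CPM in Target-AID, against 154, 138 and 142 CPM in SpACE with HEKsite2 (-0.31 ± 0.06), and 112, 118 and 132 CPM in Target-AID, against 147, 144 and 152 CPM in SpACE with RNF2 (-0.29 ± 0.06), in all 12 alternatives. PSMA1, not called in Target-AID against nCas9, was lower than in SpACE by 0.26 ± 0.06 with HEKsite2 and 0.29 ± 0.06 with RNF2 on the log2 scale, where the RNF2 call was lost in a fit of the compared groups alone (adjusted p up to 0.0561). The HEKsite2 count was 17 without Target-AID replicate 2. The RNF2 count was 13 without Target-AID replicate 1 or 2, 6 without SpACE replicate 1 and 4 in a fit of the compared groups alone, and 3 of the 29 calls held in all 12 alternatives, so for RNF2 the count depends on single libraries.

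Whether an editor's change differed between the guides was tested as the change with RNF2 minus the change with HEKsite2. EdgeR's quasi-likelihood test called 0 of 45 members for each of the 4 editors, where it called 0% of all genes for ABEmax, 0.0137% for miniABEmax-V82G, 0.164% for Target-AID and 0.0274% for SpACE. At an unadjusted p under 0.05 there were 1, 1, 4 and 7 members. The share of all genes at that threshold was not computed, so these counts are not read as a result about the members. DESeq2 called 0 members for each editor. The nearest was PSMA3 in Target-AID, with a difference of 0.38 ± 0.11 (adjusted p = 0.165), and with no filter on low counts it was called (0.40, adjusted p = 0.021). So the higher number of calls with HEKsite2 than with RNF2 is not shown to be a difference between guides for any single member.

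GFP cells, which carry no nCas9 and no guide, gave another control. Against GFP, Target-AID had 24 members lower and 4 higher with HEKsite2 (all genes 21.8% and 24.6%, together 46.4%), and 20 lower and 5 higher with RNF2 (all genes 21.5% and 24.6%, together 46.2%). Here the core carried more of the falls than the cap, with 12 of 14 core and 5 of 17 cap genes lower with HEKsite2, and 11 and 2 with RNF2. Core and cap together came to 54.8% with HEKsite2 and 41.9% with RNF2, where the 1459 genes of the same span of length and level came to 44.9% and 41.9%. With RNF2 the share of core and cap genes below GFP was thus that of genes of like length and level. The core sums were 2434, 2357 and 2508 CPM in Target-AID with HEKsite2 and 2259, 2359 and 2857 CPM with RNF2, against 3163, 2939.6 and 2940.0 CPM in GFP, with no overlap. Summed cap levels were 2966, 2765 and 2829.5 CPM in Target-AID with HEKsite2 and 2759, 2768 and 3155 CPM with RNF2, against 3292, 3063 and 3019.9 CPM in GFP. For the cap the Target-AID libraries lay below GFP with HEKsite2, and with RNF2 replicate 3 of Target-AID lay inside the GFP range.

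nCas9 itself differed from GFP at 5 lower and 12 higher members with HEKsite2 (all genes 18.8% and 19.6%, together 38.4%), and at 9 lower and 7 higher with RNF2 (all genes 20.5% and 21%, together 41.5%). Scaling by total count alone turned these into 5 lower and 21 higher and 5 lower and 14 higher, and under it the median of all genes stood at 0.07 to 0.14 on the log2 scale in the 10 comparisons with GFP, against at most 0.02 with TMM, so directions against GFP hold only relative to that shift. For Target-AID it gave 17 lower and 7 higher with HEKsite2 and 15 lower and 7 higher with RNF2. SpACE had 4 lower and 9 higher with HEKsite2 (all genes 18.2% and 18.5%, together 36.6%, and 2 and 19 by total count), and 5 lower and 12 higher with RNF2 (all genes 19% and 18.9%, together 37.9%, and 2 and 19 by total count), or 11 in all without SpACE replicate 3. ABEmax had 14 lower and 9 higher with HEKsite2 (all genes 23.2% and 23.5%, together 46.8%, and 8 and 15 by total count), and 17 lower and 7 higher with RNF2 (all genes 24.4% and 25.2%, together 49.6%, and 8 and 18 by total count). For miniABEmax-V82G the counts were 5 lower and 14 higher with HEKsite2 (all genes 19.8% and 20%, together 39.8%, and 2 and 20 by total count), and 16 lower and 7 higher with RNF2 (all genes 23.5% each, together 47%, and 8 and 16 by total count). All 10 comparisons share the 3 GFP libraries.

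Change went with gene length over all genes, in Target-AID and in other comparisons with nCas9. Over the 13789 tested genes with an annotated length, Spearman's correlation of the log2 fold change of Target-AID over nCas9 with exon length was 0.30 with HEKsite2 and 0.24 with RNF2, and over the 45 members 0.38 and 0.21. Over all genes it was 0.20 and 0.22 for ABEmax, 0.06 and 0.25 for miniABEmax-V82G, and 0.22 and 0.08 for SpACE over nCas9 with HEKsite2 and RNF2. Set against GFP it was 0.09 and 0.06 for Target-AID and -0.21 and -0.14 for nCas9, so the nCas9 libraries themselves differed from GFP by length, in the other direction. These are descriptions across genes of the same libraries, and genes are not independent. Genes in the shortest of 3 equal groups, up to 2739 exon bases, had a median change of -0.13 with HEKsite2 and -0.10 with RNF2, and those in the longest, over 4887 bases, 0.12 and 0.08. The 31 core and cap genes run from 773 to 4843 exon bases, with medians of -0.28 and -0.16, against -0.14 and -0.09 over the 1459 other genes of the same span of length and level. Among the activators PSME1 (1221 bases) and PSME2 (1488 bases) fell and PSME4 (7099 bases) rose, while of the longer members PSMA4 (4665 bases) and PSMF1 (4437 bases) fell too. The part of gene length in the members' changes was not tested.

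**Figure D5:**
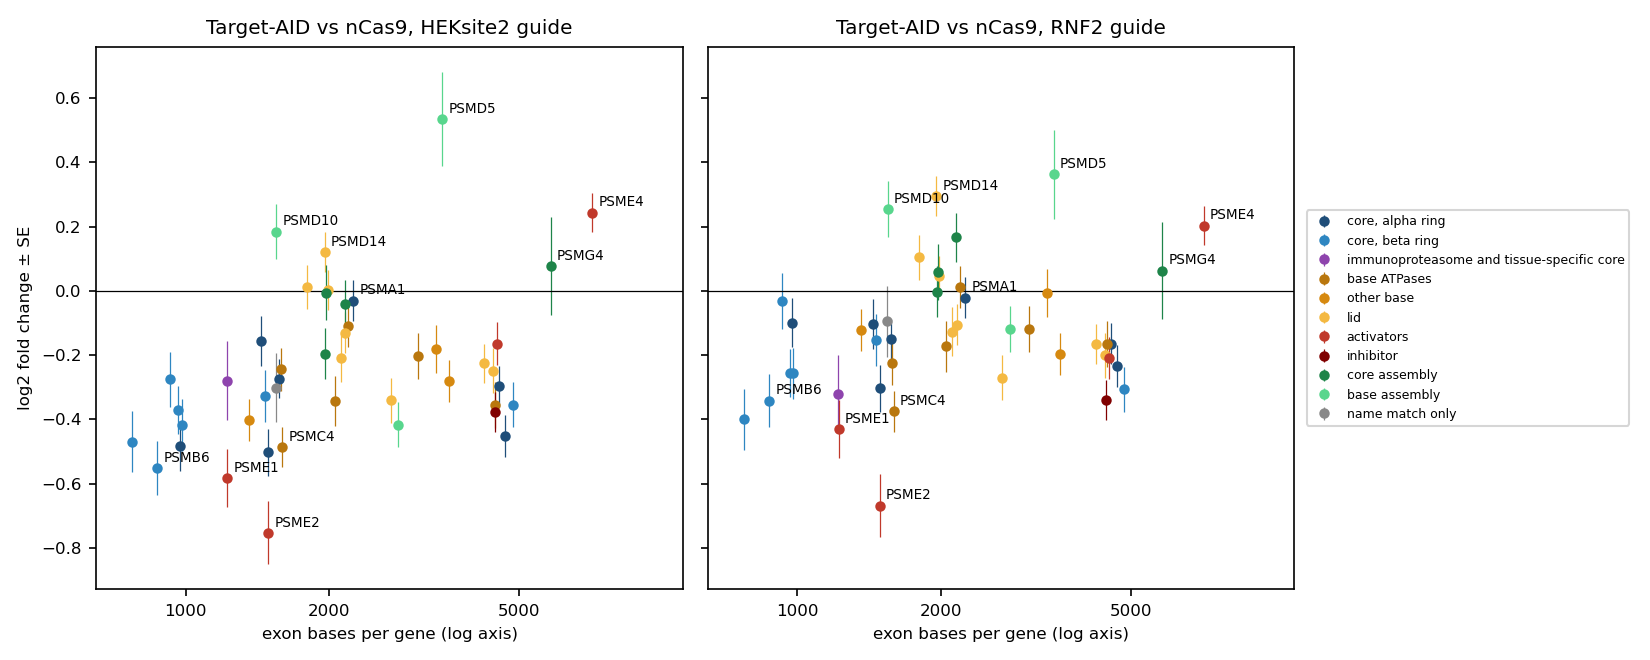
Log2 fold change ± SE of Target-AID over nCas9 for the 45 tested members by exon bases (log axis), with HEKsite2 at left and RNF2 at right, coloured by role. Most core and cap genes lie under 0 at all lengths up to 4843 bases, and PSME4 at 7099 bases lies above it.

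Other proteasome pathway genes were read from 3 lists. The 3 subunits and assembly factors with other names all fell in Target-AID with both guides, where 19.1% and 15.8% of all genes did. They are ADRM1, a ubiquitin receptor of the cap, SHFM1, a small lid subunit, and POMP, which matures the core. ADRM1 had 107, 97.5 and 106 CPM in Target-AID with HEKsite2, against 151, 138 and 137 CPM in nCas9 (-0.46 ± 0.07), and 98.6, 101 and 116 CPM in Target-AID with RNF2, against 134, 159 and 153 CPM in nCas9 (-0.50 ± 0.07). POMP was at -0.41 ± 0.07 and -0.28 ± 0.07, and SHFM1 at -0.51 ± 0.08 and -0.23 ± 0.08.

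Of 10 genes on the NFE2L1 route, 2 rose and 2 fell in Target-AID with HEKsite2 (all genes 21.5% and 19.1%, together 40.6%). With RNF2 4 rose and 1 fell (all genes 19.4% and 15.8%, together 35.2%). Counts out of 10 are too small to read against these shares. NFE2L1 itself was at 0.07 ± 0.06 with HEKsite2, not called, and 0.19 ± 0.06 with RNF2 (adjusted p = 0.0201). MAFK, a small MAF partner of such factors, rose by 0.82 ± 0.13 and 0.58 ± 0.12 in Target-AID and was -0.44 ± 0.14 in SpACE with RNF2. Of 17 proteins that bind or service the proteasome, 5 rose and 5 fell in Target-AID with HEKsite2 and 3 and 3 with RNF2, where 40.6% and 35.2% of all genes were called. In SpACE 8 rose and 1 fell with HEKsite2, where 10.7% of all genes were called higher and 10.2% lower, and 4 rose and 0 fell with RNF2, where 8.03% and 6.68% were.

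ZFAND2A, an arsenite-inducible gene whose product binds the proteasome, had the widest change of these lists in Target-AID with HEKsite2. It had 71.9, 78.3 and 87.5 CPM in Target-AID with HEKsite2, against 24.6, 25.7 and 22.4 CPM in nCas9, and 66.0, 66.5 and 62.1 CPM in Target-AID with RNF2, against 21.6, 19.8 and 22.8 CPM in nCas9. GFP had 10.7, 10.7 and 11.3 CPM. The rises over nCas9 were 1.71 ± 0.10 and 1.60 ± 0.10 in Target-AID and 1.22 ± 0.10 and 1.12 ± 0.10 in SpACE, and all 8 comparisons of an editor with nCas9 called it higher. Against GFP, nCas9 stood 1.15 ± 0.13 and 0.98 ± 0.13 higher.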

How the data were processed

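Total RNA libraries (a ribosomal-depletion kit that marks strand) of GFP-sorted HEK293T cells were read from 1 table of raw counts per gene deposited by the authors, with no normalization. Per the submitters' processing notes, STAR, GATK 3.8.1 and Picard 2.7 were used with GRCh38 (hg38), with no role named. Which program counted reads, over which gene models and whether by strand, is not given in the sources used here. All 33 count columns were matched to a labelled group and replicate. The SpACE columns also carry the word UGI, which the labels of those samples lack, and what it marks is not stated there. No per-sample column was left unused.

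Of 26475 genes, 14613 passed edgeR's filterByExpr. Counts were scaled by TMM and fitted over all 33 libraries with edgeR 4.0.16 (quasi-likelihood, 22 residual degrees of freedom, R 4.3.3, limma 3.58.1) in 24 comparisons: every editor against the nCas9 libraries that share its guide, nCas9 and each editor with GFP, Target-AID with SpACE, and each editor's change by guide. A gene was called at a Benjamini-Hochberg adjusted p under 0.05 over all genes tested. CPM are counts per 1000000 of the TMM-scaled library size. The precision of low genes such as PSMB10 and PSMD5 is limited by depth.

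Members and lists were chosen with earlier results of these data known, and a list of ubiquitin genes is not reported here. The members described singly are, in each role, those with the lowest and highest mean change of Target-AID over nCas9 across the 2 guides, PSMB10, and those called in most of the 8 comparisons of an editor with nCas9; PSMA3, PSMA4, PSMB2, PSMB5, PSMB7, PSMD6, PSMD7, PSMD10, PSME1 and PSME3 were added after their values were seen. Positions, pseudogenes and exon lengths come from GENCODE 29 on GRCh38. Alternatives were DESeq2 1.42.0, RLE or total-count scaling, keeping all genes with a count, the replicate number as a block, a fit of only the compared groups, and each library left out. The fitting code was tested on simulated data. Tables and plots were made with Python 3.11.15, pandas 2.3.3 and matplotlib 3.10.9.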

Additional observations from a re-analysis of the deposited data

How the results depend on the processing

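Over the 363 called values of single members and 12 alternatives each, 3772 of 4356 refits stayed past the threshold in the same direction, 584 lost the call and 0 reversed. Counts of members called moved by over 1.5 times under a few settings besides single libraries, and the cause was not tested. For miniABEmax-V82G against nCas9 with HEKsite2 the count was 2 with no filter on low counts and 2 in a fit of the compared groups alone, against 4. In that fit it was 14 for miniABEmax-V82G with RNF2, against 7, 11 for Target-AID with RNF2, against 23, and 4 for Target-AID against SpACE with RNF2, against 29. Total-count scaling gave 26 for nCas9 against GFP with HEKsite2, against 17, and 21 for SpACE against GFP with HEKsite2, against 13. With no filter on low counts 1 member differed by guide in Target-AID, against 0. Leaving out single libraries gave, against nCas9 with HEKsite2, 25 to 33 calls for Target-AID, 6 to 10 for SpACE, 4 to 13 for ABEmax and 2 to 4 for miniABEmax-V82G. With RNF2 the ranges were 14 to 30, 5 to 8, 2 to 4 and 1 to 4 in the same order of editors. Against GFP they were 22 to 28 for Target-AID, 9 to 14 for SpACE, 19 to 22 for ABEmax, 14 to 19 for miniABEmax-V82G and 13 to 18 for nCas9 with HEKsite2, and 21 to 32, 11 to 17, 20 to 24, 18 to 21 and 12 to 15 with RNF2. For Target-AID against SpACE they were 17 to 26 with HEKsite2 and 6 to 35 with RNF2, and 0 to 0 for each change by guide. The data do not settle whether same-numbered libraries pair. Their deviations from group means correlated only weakly, at over 0.1 in 34 of 165 pairs (mean 0.03). Yet 24 of 33 libraries correlated best with their own number, which goes with some structure by number. Nothing in the labels ties a number to a shared culture, and the main fit holds no term for it. With the replicate number as a block the counts against nCas9 were 33 for Target-AID, 12 for SpACE, 12 for ABEmax and 6 for miniABEmax-V82G with HEKsite2, and 25, 8, 5 and 9 with RNF2. Members with low counts, such as PSMB10 at 9 to 17 CPM, are those where depth limits the precision.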
